A study of Mus musculus with 2 samples.

Results

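The genes described here are 10 that receive, relay and store transforming growth factor beta (TGF-beta) signals. They were chosen by name: the receptors Tgfbr1, Tgfbr2 and Tgfbr3, the intracellular Smad2, Smad3 and Smad7, the latent TGF-beta binding proteins Ltbp1, Ltbp2 and Ltbp3, and fibrillin 1 (Fbn1). All 10 were found in the GENCODE mouse release 21 annotation. Open chromatin was taken from ATAC-seq, in which a transposase inserts sequencing adapters where DNA is accessible, and clusters of insertions are called as peaks. The tissue was chondrocytes of the proximal or the distal femoral growth plate of FVB embryos (strain label FVBNJ) at E15.5, with no mutant allele and no agent in the labels of either group. For each end, cartilage from both femurs was pooled within 1 litter, of 8 animals on average, and 50000 cells went into a library. The dissected tissue included every chondrocyte zone and the perichondrium. Each end had 2 biological replicates, and the files used here are 1 list of peak positions per end that combines them. The values below therefore have no replicate error, and no test of one end against the other was made. Reads and single replicates were not analysed here.

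The proximal list held 28257 peaks and the distal list 27958, which merged into 32388 regions. Of these, 62 regions lay inside the 10 genes or within 50 kb of them, and they came from 53 proximal and 53 distal peaks. A region was called shared when it held a peak of both ends (overlap of 1 bp or more) and single-end when it held a peak of 1 end. A region was called a promoter region when its nearest edge was no more than 1 kb from an annotated start of transcription. Peak height and read depth were not analysed here, so a single-end region is one that passed the authors' reproducibility threshold in only 1 list, and how far the signal differed between the ends was not measured. ATAC-seq of bulk tissue gives the open sites of all its cells together, so a site open in few cells and a site weakly open in many cannot be told apart, and gene expression was not measured.

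TGF-beta is secreted in an inactive complex that latent TGF-beta binding proteins tether to fibrillin microfibrils in the matrix, and it signals only after its release. The freed ligand binds the type II receptor, which phosphorylates the type I receptor, which in turn phosphorylates Smad2 and Smad3 so that they enter the nucleus with Smad4, while Smad7 is an inhibitor that the pathway itself induces. In growth plate cartilage the pathway is known for restraining the hypertrophic maturation of chondrocytes, and changes in fibrillin 1 and in latent TGF-beta binding proteins are known to alter the growth of long bones.

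Marker promoters were read first as a check of the tissue label. A promoter peak was present in both ends for 5 of 6 chondrocyte markers (Col2a1, Acan, Sox9, Col9a1 and Hapln1, but not Matn1), 0 of 4 osteoblast, 0 of 4 muscle and 0 of 3 autosomal blood markers, 1 of 4 endothelial markers (Kdr) and 1 of 4 epithelial markers (Epcam). The marker promoters did not differ between the ends, since none had a peak of 1 end only.

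The sequences on which the comparison turns are printed here from the mm10 reference, 5′ to 3′ on the coding strand of the gene, and the FVB genome was not read. Capitals mark motifs found on either strand. The motifs searched were AP-1 (TGAGTCA or TGACTCA), the Smad palindrome GTCTAGAC, the Smad-associated CAGACA and GGCGCC, a Runx core TGTGGT, and the Sox letters ACAATG or ACAAAG. None contains another, although neighbouring hits can share letters. The first set compares open sites of the receptor genes that were shared or single-end, each as 200 bp around the centre of the region. The Tgfbr2 site lies 48.2 kb upstream of the gene at chr9:116223423-116223622 (minus strand) and was shared. The Tgfbr3 sites lie in its introns on the minus strand, a distal-only site at chr5:107213653-107213852, a shared site at chr5:107200671-107200870 and a proximal-only site at chr5:107151147-107151346.
Tgfbr2 upstream, shared: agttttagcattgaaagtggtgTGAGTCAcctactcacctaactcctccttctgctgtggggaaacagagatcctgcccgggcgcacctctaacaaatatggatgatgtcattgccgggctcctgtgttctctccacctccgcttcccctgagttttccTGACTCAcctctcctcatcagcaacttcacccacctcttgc
Tgfbr3 intron 3, distal only: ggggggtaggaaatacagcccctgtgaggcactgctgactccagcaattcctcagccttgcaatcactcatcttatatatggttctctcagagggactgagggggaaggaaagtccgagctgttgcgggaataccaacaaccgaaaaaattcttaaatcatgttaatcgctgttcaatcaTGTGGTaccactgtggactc
Tgfbr3 intron 3, shared: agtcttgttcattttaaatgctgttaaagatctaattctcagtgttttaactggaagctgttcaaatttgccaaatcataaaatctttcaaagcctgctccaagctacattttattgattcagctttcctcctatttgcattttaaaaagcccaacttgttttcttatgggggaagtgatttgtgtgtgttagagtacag
Tgfbr3 intron 5, proximal only: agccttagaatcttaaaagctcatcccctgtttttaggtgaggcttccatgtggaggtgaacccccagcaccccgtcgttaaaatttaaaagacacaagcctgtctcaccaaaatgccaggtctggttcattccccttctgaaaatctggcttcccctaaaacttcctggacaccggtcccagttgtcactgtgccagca
The Tgfbr2 site held AP-1 letters at 2 places. In the 200 bp windows the distal-only Tgfbr3 site held 1 Runx core, and the other 2 Tgfbr3 sites none of the motifs searched. Over its whole length the distal-only region held 4 Runx cores, 2 Sox matches and 1 CAGACA. The whole shared region held 1 match each for AP-1, Runx and Sox, and the whole proximal-only region none.

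The second set shows the only promoter region that differed between the ends, at Ltbp3, beside the annotated promoter it did not reach. The distal-only region was printed as the 300 bp at its centre, chr19:5741698-5741997 (mm10, plus strand). The annotated promoter is RefSeq's, 300 bases around the gene's start, at chr19:5740650-5740949 (GRCm38.p6, plus strand).
Ltbp3 distal-only region: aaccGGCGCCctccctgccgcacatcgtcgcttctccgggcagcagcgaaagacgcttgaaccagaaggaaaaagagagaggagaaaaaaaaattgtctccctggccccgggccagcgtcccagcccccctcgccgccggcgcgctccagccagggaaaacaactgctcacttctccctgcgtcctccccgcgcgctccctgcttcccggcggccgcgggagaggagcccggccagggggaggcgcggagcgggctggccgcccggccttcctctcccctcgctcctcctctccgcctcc
Ltbp3 RefSeq promoter: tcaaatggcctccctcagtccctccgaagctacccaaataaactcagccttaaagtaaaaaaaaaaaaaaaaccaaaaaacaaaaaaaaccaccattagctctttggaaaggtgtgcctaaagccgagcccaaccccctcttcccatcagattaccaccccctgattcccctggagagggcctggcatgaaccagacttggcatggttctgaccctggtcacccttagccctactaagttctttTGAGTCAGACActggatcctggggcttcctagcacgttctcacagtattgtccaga
The open sequence was rich in CpG, with a CpG ratio (observed over expected from base composition) of 0.754 in the whole region, against 0.188 in the RefSeq promoter. The RefSeq promoter held an AP-1 site and the CAGACA letters, which share letters in the run of capitals, and these were present in 5.20% and 21.0% of 32851 RefSeq promoters of the same length. The region held GGCGCC in the bases printed.

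The third set shows RefSeq promoters (GRCm38.p6) that span the range of the genes: Tgfbr1, whose promoter was its only open region, at chr4:47352972-47353271 (plus strand), the long and short promoters of Ltbp1 at chr17:75005279-75005578 and chr17:75178531-75178830 (plus strand), both open in both ends, and Ltbp2 at chr12:84876442-84876741 (minus strand), which had no peak in either end.
Tgfbr1: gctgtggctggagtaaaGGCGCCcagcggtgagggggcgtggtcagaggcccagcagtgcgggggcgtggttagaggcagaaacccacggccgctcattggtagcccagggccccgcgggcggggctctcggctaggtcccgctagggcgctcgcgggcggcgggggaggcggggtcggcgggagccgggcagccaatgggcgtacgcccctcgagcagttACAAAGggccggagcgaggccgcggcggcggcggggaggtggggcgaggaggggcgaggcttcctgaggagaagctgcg
Ltbp1 long: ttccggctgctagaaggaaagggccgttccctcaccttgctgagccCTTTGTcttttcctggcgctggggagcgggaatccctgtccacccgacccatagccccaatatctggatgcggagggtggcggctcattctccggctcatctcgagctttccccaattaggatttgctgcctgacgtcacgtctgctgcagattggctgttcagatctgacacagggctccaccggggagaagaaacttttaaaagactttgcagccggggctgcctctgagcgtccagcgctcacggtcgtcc
Ltbp1 short: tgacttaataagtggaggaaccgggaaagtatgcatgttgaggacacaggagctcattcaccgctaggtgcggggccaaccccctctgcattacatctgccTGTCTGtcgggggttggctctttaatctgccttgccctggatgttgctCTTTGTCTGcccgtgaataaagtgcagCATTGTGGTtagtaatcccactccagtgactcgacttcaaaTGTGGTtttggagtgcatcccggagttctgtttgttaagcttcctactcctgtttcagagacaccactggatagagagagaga
Ltbp2: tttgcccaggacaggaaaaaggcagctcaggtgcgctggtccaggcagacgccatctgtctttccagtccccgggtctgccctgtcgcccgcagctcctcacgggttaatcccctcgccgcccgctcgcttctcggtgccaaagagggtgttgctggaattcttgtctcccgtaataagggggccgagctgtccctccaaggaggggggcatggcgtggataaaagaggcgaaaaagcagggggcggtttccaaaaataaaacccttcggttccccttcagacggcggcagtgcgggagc
The CpG ratio was 0.885 at Tgfbr1, 0.660 at the long and 0.375 at the short Ltbp1 promoter, and 0.717 at Ltbp2, so the promoter without a peak was not the poorest in CpG among the 4. The short Ltbp1 promoter held the Runx core at 2 places, where 16.8% of RefSeq promoters held it at least once. None of the motifs searched was in the Ltbp2 promoter.

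The last set shows a pair of proximal-only sites upstream of Fbn1 (mm10, minus strand), the gene with the highest share of single-end regions. They lie 32.8 kb upstream at chr2:125540676-125540875 and 22.9 kb upstream at chr2:125530827-125531026.
Fbn1 upstream, far: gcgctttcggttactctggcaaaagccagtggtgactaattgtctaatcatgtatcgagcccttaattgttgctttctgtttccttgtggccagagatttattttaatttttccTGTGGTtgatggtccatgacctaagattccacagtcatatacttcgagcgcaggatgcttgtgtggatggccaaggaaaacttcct
Fbn1 upstream, near: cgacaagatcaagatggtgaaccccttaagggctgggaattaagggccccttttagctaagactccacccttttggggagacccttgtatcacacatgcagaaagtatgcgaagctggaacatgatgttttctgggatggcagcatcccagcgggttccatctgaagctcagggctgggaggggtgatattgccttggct
In the 200 bp printed the far site held 1 Runx core, and the near site none of the motifs searched. Over its whole length each region also held CAGACA at 1 place.

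Across the 10 genes, 44 of 62 regions were shared, 9 were proximal only and 9 were distal only. The single-end share was 29.0% (18 of 62, 95% Wilson interval 19.2% to 41.3%), and 27.0% of all 32388 merged regions were single-end, a background that lies inside the interval. The intervals cover counting error only, and regions of 1 gene are not independent of each other. The promoters of 8 of 10 genes had a peak in both ends, where 55.0% of 20807 autosomal protein-coding genes did. The exceptions were both latent TGF-beta binding proteins: Ltbp3 had a promoter peak in the distal femur only, as 4.14% of all genes had one in 1 end only, and Ltbp2 had none in either end, like 40.9% of all genes.

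**Figure D1:**
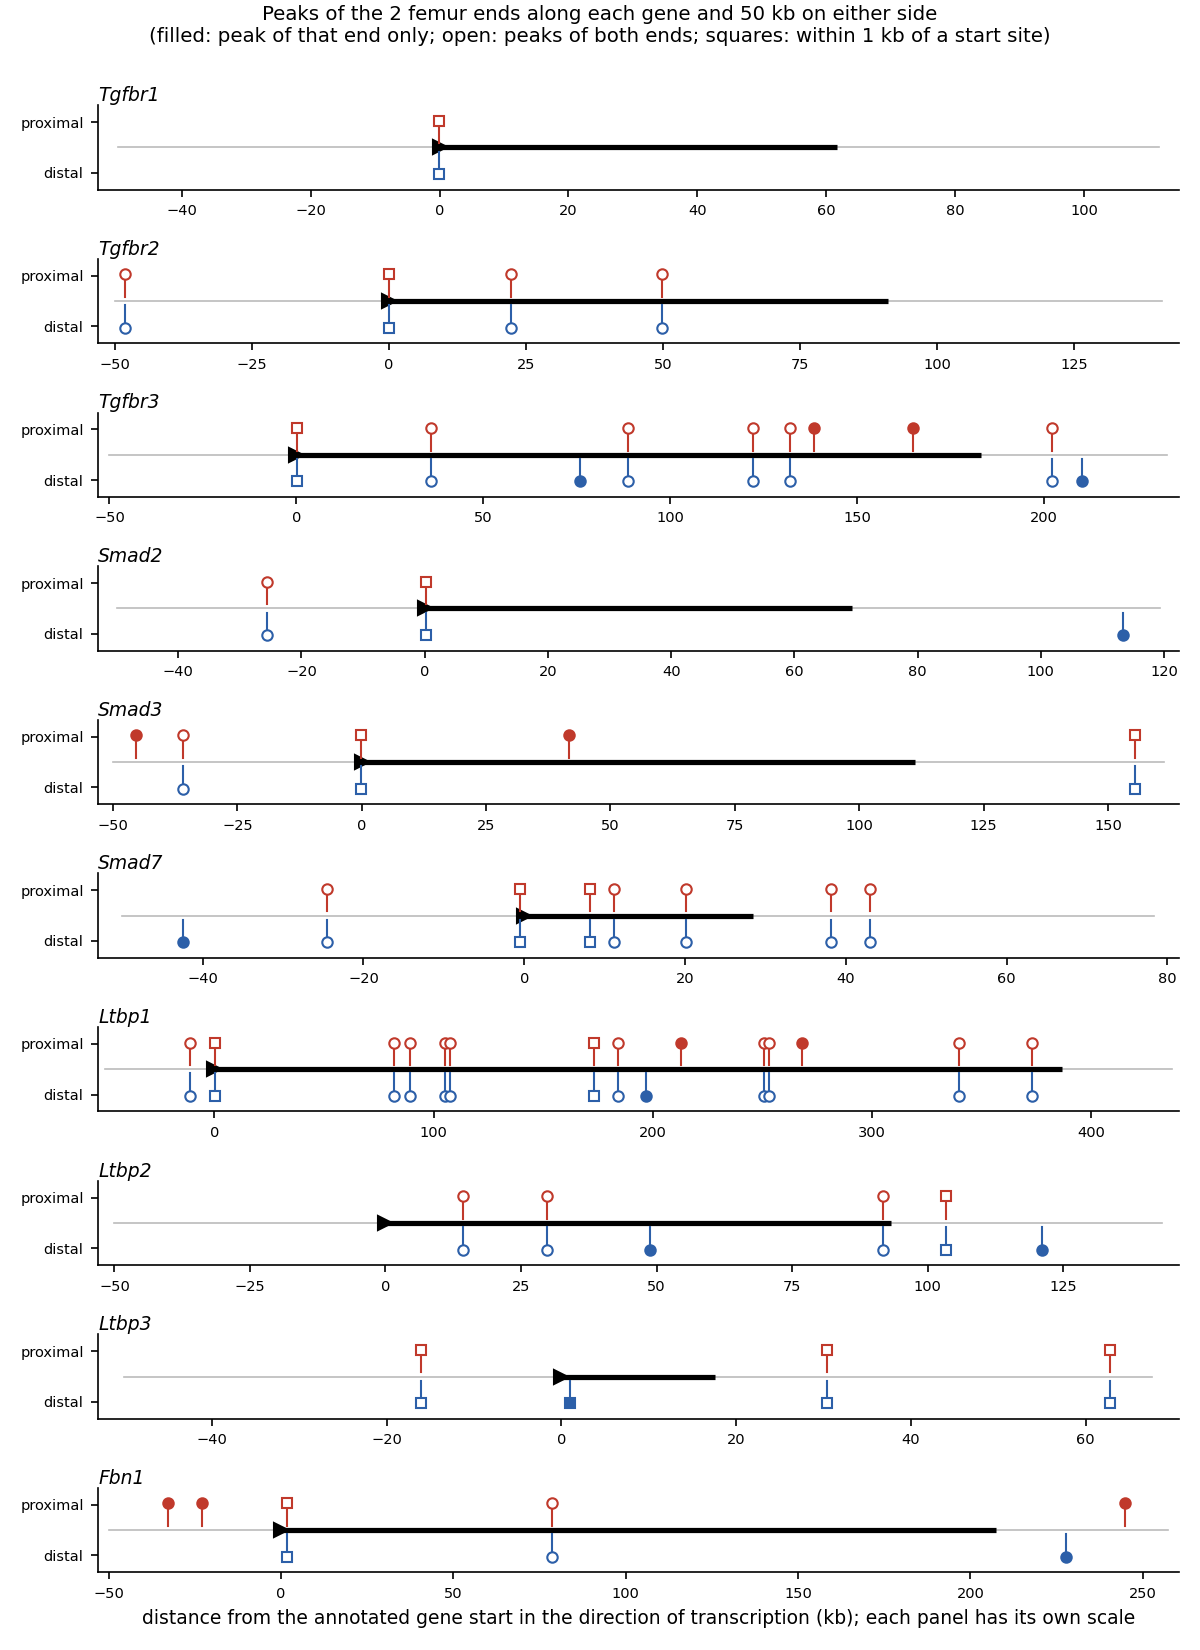
Peaks of the proximal (above, red) and distal (below, blue) femur along each gene, in kb from the annotated gene start in the direction of transcription. The black bar is the gene, open symbols mark regions with peaks of both ends, filled symbols mark regions with a peak of 1 end only, and squares mark regions within 1 kb of a start site of any gene. Tgfbr1 had its promoter region alone, while Ltbp1 had 15 regions and Fbn1 had 4 single-end regions of 6.

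The receptors had 15 regions, of which 11 were shared, 2 proximal only and 2 distal only (26.7% single-end, interval 10.9% to 52.0%), and all 4 single-end regions belonged to Tgfbr3. Tgfbr1, the type I receptor kinase (chr4:47353222-47414931, plus strand), had 1 region, at its promoter, in the 162 kb examined. Its peak was 1393 bp wide in the proximal and 1072 bp wide in the distal list. By count, at most 1 region was present around 25.5% of all protein-coding genes, though the median window over all genes was shorter, 118 kb. Per length, the 0.618 regions per 100 kb at Tgfbr1 lay below the lower quartile of all genes (0.951). Another annotated start site inside the gene was 32396 bp from the nearest peak.

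Tgfbr2, the type II receptor that binds the ligand (chr9:116084293-116175360, minus strand), had 4 regions, all shared. The promoter peak covered both annotated start sites and was 1108 bp wide in the proximal and 1042 bp in the distal femur. Intron 2 held a shared region 22.3 kb from the start, with peaks of 667 and 642 bp. Intron 4 held a shared region at 49.9 kb, where the proximal peak was 648 bp and the distal peak 375 bp wide. The upstream site with AP-1 letters at 2 places, printed above, lay near the edge of the window and its peaks were 359 and 380 bp wide. Each of the 4 places was thus open in both ends, and the intron 4 site was the one where the ends differed most in width.

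Tgfbr3 encodes betaglycan, a co-receptor that presents ligand to the signalling receptors (chr5:107106570-107289629, minus strand). It had 10 regions, 1 at the promoter, 7 in introns and 2 downstream of the gene. The promoter peak was 1152 bp in the proximal and 1061 bp in the distal list, and no upstream region was found within 50 kb. Its single-end regions lay in the introns and in the downstream flank. Intron 3 held a distal-only peak of 740 bp, 12009 bp from the nearest proximal peak, and a shared region with peaks of 1206 and 1202 bp. Intron 5 held a proximal-only peak of 877 bp that lay 5576 bp from the nearest distal peak, the shortest such gap among the 10 genes. Intron 14 held a second proximal-only peak, of 573 bp, and the downstream flank a distal-only peak of 722 bp beyond a shared region with peaks of 753 and 688 bp. A shared region in intron 4 had the widest difference among all shared regions of the 10 genes, with 1480 bp in the proximal and 858 bp in the distal femur. Tgfbr3 thus had as many proximal-only as distal-only sites, 2 of each.

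The Smad genes had 16 regions, of which 12 were shared, 2 proximal only and 2 distal only (25.0% single-end, interval 10.2% to 49.5%). Smad2, a receptor-activated Smad (chr18:76241580-76310963, plus strand), had 3 regions and none inside its introns. Its promoter peak covered the first 4 annotated start sites and was 1527 bp in the proximal and 1536 bp in the distal list. A start site inside the gene, used by a transcript with the same length of coding sequence, was 18619 bp from the nearest peak. A shared region lay 25.6 kb upstream (peaks of 454 and 520 bp), and a distal-only peak of 609 bp lay in the downstream flank, 23473 bp from the nearest proximal peak.

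Smad3, the other receptor-activated Smad (chr9:63646767-63757994, minus strand), had 5 regions and was the Smad with proximal-only sites. Its promoter peak was 839 bp in the proximal and 768 bp in the distal femur. Of its 5 start sites, the remaining 4 had no peak within 1 kb. A proximal-only peak of 578 bp lay 45.4 kb upstream, and a shared region at 35.9 kb upstream had peaks of 360 and 482 bp. A second proximal-only peak, of 340 bp, lay in intron 1 and was the most isolated of all single-end regions here, at 41285 bp from the nearest distal peak. The fifth region was shared and lay at the promoters of the neighbours Aagab and Iqch. No distal-only region was found at Smad3, and no proximal-only region at Smad2 or Smad7.

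Smad7, the inhibitory Smad (chr18:75367529-75395935, plus strand), was the most densely covered of the 10 genes. It had 8 regions in 128 kb (6.23 per 100 kb), of which 7 were shared. The promoter peak was 1257 bp in the proximal and 1279 bp in the distal list, and it also reached a start site of the noncoding neighbour Gm20544. Within this promoter region lay the Smad palindrome, 353 bp before the gene start, at position 75367176 to 75367183. Over their whole length, 0.719% of all 32388 regions held the palindrome, and no other region of the 10 genes did. A second region, with peaks of 449 and 404 bp, lay 551 bp from the start of a noncoding transcript inside the gene. Intron 3 held shared regions at 11.2 kb and 20.1 kb. Upstream, a shared region with peaks of 1775 and 1776 bp lay 24.5 kb from the gene start, and a distal-only peak of 913 bp lay 42.4 kb from it. Downstream, 2 shared regions were each wider in the distal list, with 468 against 755 bp and 484 against 553 bp.

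The latent TGF-beta binding proteins and fibrillin 1 had 31 regions, 21 shared, 5 proximal only and 5 distal only (32.3% single-end, interval 18.6% to 49.9%). The intervals of the 3 groups overlapped, and each included the background of 27.0%. Ltbp1, which binds the latent TGF-beta complex in the matrix (chr17:75005568-75392512, plus strand), held 15 of the 31 regions in a window of 487 kb. A count of 15 or more was reached by 87 genes, or 0.418% of all, although per length its 3.08 regions per 100 kb were inside the quartiles of all genes (0.951 and 3.53). Both promoters of Ltbp1 were open in both ends. The long promoter, from which the longest coding sequence of 5139 bp is transcribed, had peaks of 1664 bp in each list. The short promoter, 173 kb into the gene, had peaks of 810 bp in the proximal and 775 bp in the distal list, and the longest coding sequence from it is 4182 bp.

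The other Ltbp1 regions were 12 in introns and 1 upstream. The upstream region at 11.2 kb had a proximal peak of 988 bp and a distal peak of 574 bp, which overlapped over 41.5% of their union. Intron 3, between the long promoter and the short one, held 4 shared regions. Intron 5 held a shared region, a distal-only peak of 680 bp and a proximal-only peak of 483 bp. A further proximal-only peak, of 736 bp, lay in intron 11. In introns 10, 25 and 32 all regions were shared, 4 in number. The 3 single-end regions of Ltbp1 thus all lay downstream of its short promoter.

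Ltbp2, a family member that binds fibrillin but not the latent complex (chr12:84783212-84876532, minus strand), had no peak at any of its 7 start sites. The region nearest to the start sites of its full-length transcripts lay in intron 2, 14.4 kb from the gene start at its centre, and was shared, with 764 bp in the proximal and 908 bp in the distal list. Intron 3 held a second shared region of 625 and 645 bp, and intron 8 a distal-only peak of 479 bp. A shared region in an exon near the 3′ end had peaks of 563 and 561 bp, and was the only exonic region of the 10 genes. The other 2 regions lay downstream: a shared one at the promoters of Isca2 and Npc2, and a distal-only peak of 422 bp that overlapped Npc2. Both single-end regions of Ltbp2 were distal only.

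Ltbp3, which like Ltbp1 binds the latent complex (chr19:5740904-5758532, plus strand), had 4 regions in its window. Of these, 3 lay at promoters of other genes and were shared. The 1 region nearest to Ltbp3 itself was the distal-only peak of 481 bp printed above, centred 0.944 kb downstream of the gene start. It lay 704 bp from the coding start site and 269 bp from the start of a retained-intron transcript. The nearest proximal peak was 16282 bp from the distal peak.

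Fbn1, which encodes the microfibril protein to which the latent complexes are tethered (chr2:125300594-125507993, minus strand), had 4 single-end regions of 6, the highest share among the 10 genes. Its promoter region was shared and wide, with 1975 bp in the proximal and 1753 bp in the distal list. It covered 2 of the 3 start sites of the gene and lay 893 bp from the other. The region was also within 1 kb of a start site of Gm9913, a protein-coding gene that it overlapped. A shared region in intron 6 had peaks of 633 and 586 bp. The remaining regions were all single-end and all outside the gene: the upstream pair of proximal-only peaks printed above, of 420 and 614 bp, a distal-only peak of 555 bp and a proximal-only peak of 340 bp in the downstream flank. The downstream pair were nearer to the start of Dut than to that of Fbn1. All 4 single-end regions lay more than 20 kb outside the gene, so the high share at Fbn1 depends on the 50 kb flanks.

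**Figure D2:**
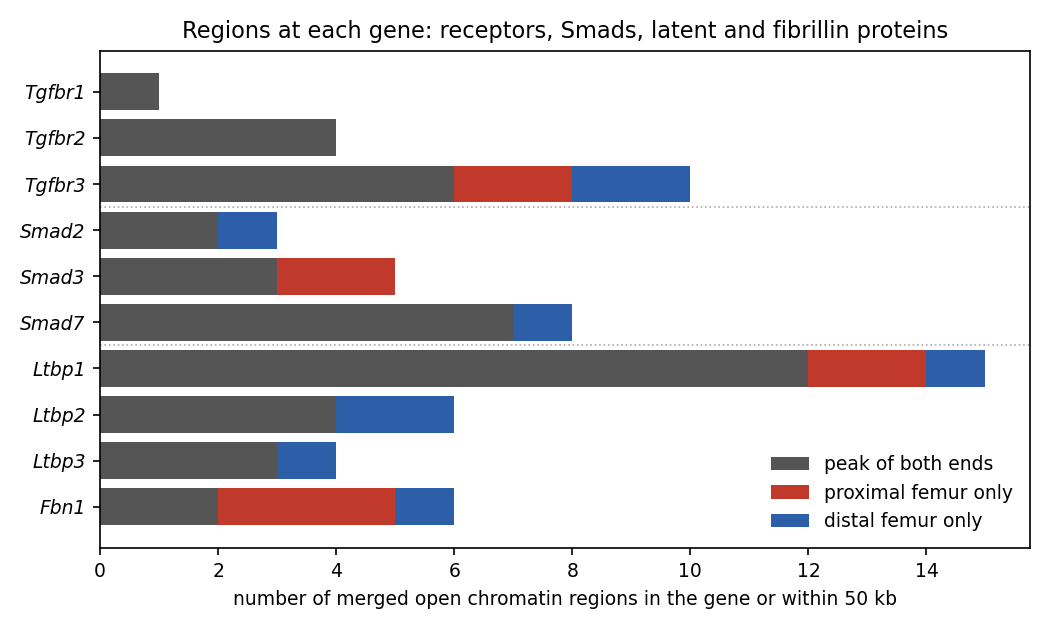
Number of merged regions inside each gene or within 50 kb of it, split into regions with a peak of both ends, of the proximal femur only and of the distal femur only. Ltbp1 had the most regions, 15, of which 12 were shared, and Fbn1 had the highest single-end share, 4 of 6. These 4 Fbn1 regions all lay more than 20 kb outside the gene.

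By position, 9 of the 18 single-end regions lay in the flanks of the genes, 8 in introns and 1 at a promoter. Of 11 promoter regions of the genes themselves, 10 were shared and 1, that of Ltbp3, was distal only (9.09%, interval 1.62% to 37.7%), against 12.2% of all promoter regions. All 5 promoter regions of neighbouring genes were shared. Of 28 intronic regions 8 were single-end (28.6%, interval 15.3% to 47.1%), against 39.7% of all intronic regions. Of 17 flanking regions, which lay outside the genes and away from any promoter, 9 were single-end (52.9%, interval 31.0% to 73.8%), against 35.4% of all regions outside genes within 50 kb of a protein-coding gene. Over the 10 genes together, each of these backgrounds lay inside the interval of their own share. Over all regions away from start sites, 17 of 46 were single-end (37.0%), against 38.0% of all such regions.

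The shares of the groups were furthest apart in the flanks, with intervals that overlapped. For the latent and fibrillin genes 5 of 6 flanking regions were single-end (83.3%, interval 43.6% to 97.0%), 4 of them at Fbn1, and the background of 35.4% lay below this interval. That background covers only regions outside every protein-coding gene, whereas the Ltbp2 site among the 5 overlapped Npc2. The Ltbp2 site and the downstream pair at Fbn1 were also nearer to the start of a neighbouring gene. For the Smads the single-end count was 3 of 8 (37.5%, interval 13.7% to 69.4%) and for the receptors 1 of 3 (33.3%, interval 6.15% to 79.2%). In introns the shares were closer, with 3 of 9 for the receptors, 1 of 3 for the Smads and 4 of 16 for the latent and fibrillin genes. By distance, in bands chosen after the values were seen and with promoters of neighbours included, 0 of 7 regions within 20 kb outside the genes were single-end, 9 of 15 between 20 and 50 kb (60.0%, interval 35.7% to 80.2%), and 4 of 24 between 50 and 100 kb (16.7%, interval 6.68% to 35.9%). Across these bands the share did not rise steadily. The share over all regions in the same bands was not computed, so no effect of distance can be read from them.

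Single-end regions were not the edges of shared ones. The gap between each of them and the nearest peak called in the opposite end ranged from 5576 to 41285 bp (median 16342 bp), where the median over all 8753 single-end regions was 22174 bp. They were narrower, with a median width of 576 bp against 800 bp for the shared regions of the 10 genes, and the medians over all regions were 504 and 812 bp.

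Where both ends had a peak, the peaks largely coincided. The median overlap at the 10 genes was 87.8% of the union of both peaks, against 88.7% over all 23635 shared regions. The proximal peak was wider in 26 of 44 shared regions and the distal peak in 17, with a median difference (proximal minus distal) of 18.0 bp, and the median over all shared regions was 15.0 bp. The groups lay on different sides of this median. At the receptors the proximal peak was wider in 10 of 11 regions (median difference 65.0 bp), and at the Smads in 3 of 12 (median difference -22.0 bp), where 57.1% of all shared regions were wider in the proximal list. The latent and fibrillin genes had 13 of 21 regions wider in the proximal list (median difference 33.0 bp). With 1 list per end no error can be put on a width.

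**Figure D3:**
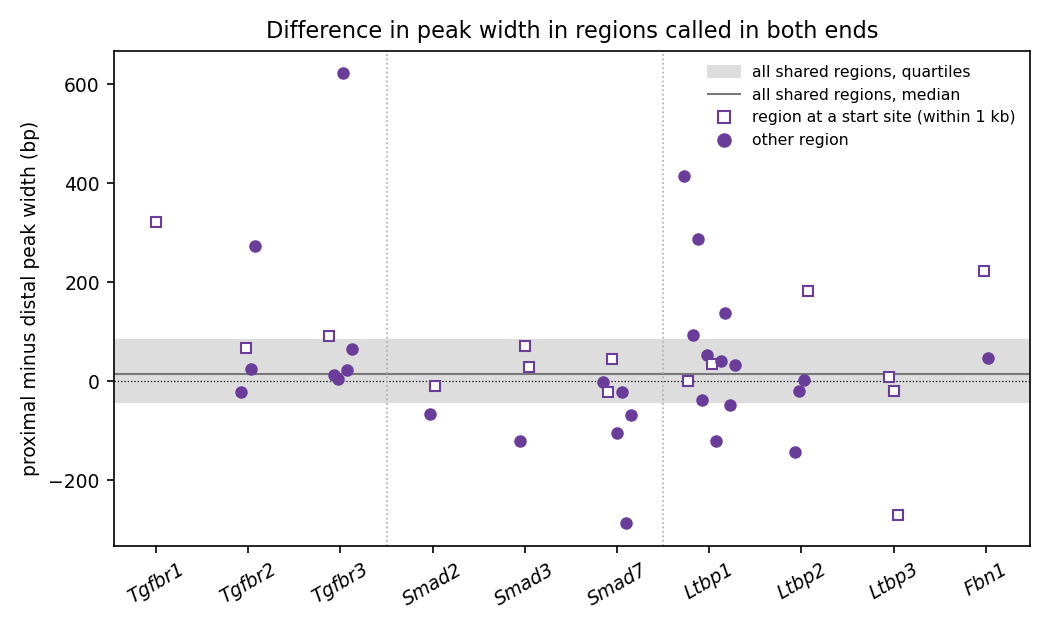
Difference in peak width, proximal minus distal, in bp, for each shared region of each gene. Squares are regions within 1 kb of a start site of any gene, the band is the range between the quartiles of all shared regions (-42.0 to 83.0 bp) and the line their median (15.0 bp). Most receptor regions sit above 0 and 9 of 12 Smad regions below it.

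Set against the length examined, the genes had a median of 2.72 regions per 100 kb of gene and flanks, and all autosomal protein-coding genes had a median of 2.07 (quartiles 0.951 and 3.53). The order from the sparsest to the densest was Tgfbr1 (0.618), Smad2 (1.77), Fbn1 (1.95), Tgfbr2 (2.09), Smad3 (2.37), Ltbp1 (3.08), Ltbp2 (3.10), Ltbp3 (3.40), Tgfbr3 (3.53) and Smad7 (6.23). Tgfbr1 lay below the lower quartile of all genes, Tgfbr3 at the upper quartile and Smad7 above it. The receptors and the Smads each ran from at or near the bottom of this order to at or near its top. The latent and fibrillin genes, at 1.95 to 3.40, all lay inside the quartiles of all genes.

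**Figure D4:**
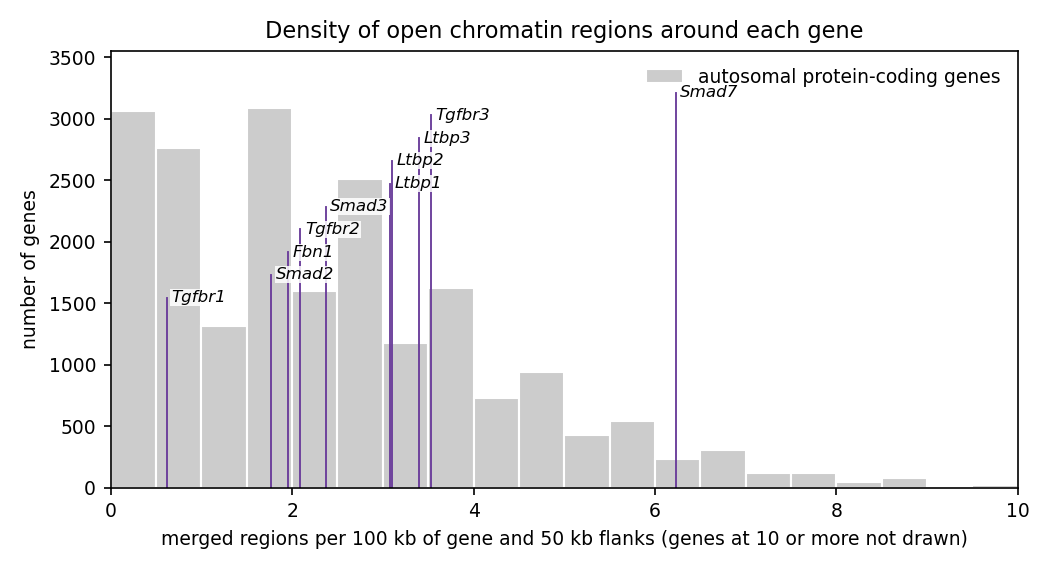
Histogram of merged regions per 100 kb of gene and 50 kb flanks over autosomal protein-coding genes (bars, number of genes), with the 10 genes marked by lines. Tgfbr1 (0.618) and Smad7 (6.23) are the extremes, and the other 8 lie between 1.77 and 3.53.

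In sequence, the regions resembled open chromatin elsewhere in base composition, with a median GC of 50.9% against 51.6% of all regions. Their promoter regions were richer, with a median of 67.0% against 60.2% of all promoter regions. In the 200 bp around the centre, AP-1 letters were present in 11 of 62 regions (17.7%, interval 10.2% to 29.0%), against 19.9% of all regions, and away from start sites in 17.4% of the genes' regions (interval 9.09% to 30.7%) against 30.4%. Over the whole length of these regions the shares were 43.5% and 45.8%. Of the 18 single-end regions 1 held AP-1 letters in its window (5.56%, interval 0.988% to 25.8%), a distal-only site downstream of Ltbp2, where 26.8% of all single-end regions held them. Over their whole length, 3 of the 18 held them (16.7%), against 37.8% of all single-end regions. In the 200 bp windows the receptors had AP-1 letters in 4 of 15 regions, the Smads in 3 of 16 and the latent and fibrillin genes in 4 of 31.

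The Runx core was present in 14 of 62 regions (22.6%, interval 14.0% to 34.4%), against 13.7% of all regions. Away from start sites it was in 26.1% of the genes' regions (interval 15.6% to 40.3%). The share of all such regions, 18.1%, lay inside that interval. Over the whole length of regions at any position, the shares were 41.9% at the genes and 38.5% of all regions. Within the windows it was present in 9 of the 31 regions of the latent and fibrillin genes (interval 16.1% to 46.6%). The counts were 4 of 16 at the Smads (interval 10.2% to 49.5%) and 1 of 15 at the receptors (interval 1.19% to 29.8%). These intervals overlapped. Runx factors are regulators of chondrocyte and osteoblast maturation. The Sox letters were present in 5 of 62 regions (8.06%, interval 3.49% to 17.5%), against 14.7% of all regions. The Smad-associated CAGACA was present in 5 of 62 (8.06%, interval 3.49% to 17.5%), against 14.7%, and GGCGCC in 4 of 62 (6.45%, interval 2.54% to 15.4%), against 9.61%. Each background lay inside its interval. Away from start sites the Sox letters and CAGACA were each in 6.52% (interval 2.24% to 17.5%), against 17.9% and 17.6%, and GGCGCC in 4.35% against 3.09%. Over the whole length of these regions the shares were 39.1% against 49.7% for Sox and 47.8% against 44.5% for CAGACA. The palindrome was in none of the 62 windows and in 0.182% of all. A match of letters describes the sequence and does not show that a factor binds there.

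The rest of the pathway was read from a list of 27 further genes. A promoter peak in both ends was found for 17 of 27 (63.0%, against 55.0% of all genes). All 9 cofactors and inhibitors of the Smads on the list had one, among them Smad4, the common partner of Smad2 and Smad3, and Ski and Skil, which repress Smad-dependent transcription. The promoter of the ligand Tgfb2 and that of the target Tgfbi, a matrix protein induced by TGF-beta, had a peak in the distal list only. Those of Emilin1, a matrix protein that binds the TGF-beta precursor, and Lrrc32, which docks latent TGF-beta on the cell surface, had a peak in the proximal list only. These are 4 of 27 genes with a promoter peak in 1 end only, against 4.14% of all genes. No interval was computed for this count, and the list was chosen with earlier results of these data known. It was therefore not read as an excess. Neither end had a promoter peak at Fbn2, the second fibrillin, Nrros, a docking protein of myeloid cells, Itgb6, a subunit of an activating integrin, the protease Furin, or the receptors Eng and Acvrl1, which are known from endothelial cells. These are 6 of 27 genes, where 40.9% of all genes had no promoter peak in either end.

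Most regions on this list were found at Emilin1 and at Itgav, a subunit of integrins that activate TGF-beta (9 each), followed by Tgfb1 and Ski (8 each). Over the 27 genes, 35 of 120 regions were single-end (29.2%, interval 21.8% to 37.8%), against 27.0% of all merged regions.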

How the data were processed

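ATAC-seq was performed by the authors on proximal and distal femoral growth plates with 2 biological replicates per end. Per the labels, processing used Bowtie2 2.2.8 and MACS2 2.1.1 on mm10, and per the study's methods duplicate reads were removed and peaks were kept where their irreproducible discovery rate (IDR) was below 0.05. The deposited files used here hold peak positions, 1 list per end, with no score. Height and depth were not analysed here, so weakly open sites can be missing from a list, and 1 list per end allows no test and no replicate error.

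Peaks overlapping by at least 1 bp were merged and placed relative to GENCODE release 21 genes, with promoters within 1 kb of a start site, gene flanks of 50 kb, and introns of the transcript with the longest coding sequence. Shares carry 95% Wilson intervals. The 6 motifs were searched in the 200 bp around each centre. Python 3.11.15, NumPy 2.4.6 and matplotlib 3.10.9 were used, and the counting steps were tested on simulated lists. All 10 genes were named. Of the pathway list, genes with a promoter peak in 1 end or neither and those with the most regions (ties included) were named, with role examples added after their values were seen. The members and lists were chosen with earlier results of these data known. Background shares over genes cover autosomes. Results for 1 neighbouring item are not reported here.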

Additional observations from a re-analysis of the deposited data

How the results depend on the processing

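Of 79 values recomputed under other settings, 69 stayed within their counting interval or within 1.5 times the reported count, and 10 did not. The intervals are wide, so the count of 69 does not show that the shares are stable. With flanks of 20 kb the Smads' single-end share was 11.1%, against 25.0% as reported, and still lay inside its interval. So did the 43.8% of the latent and fibrillin genes without Ltbp1, against 32.3%. Counting a nearby peak of the other end as shared could change no value, since every gap exceeded the distance allowed (shortest gap 5576 bp). The single-end share of the 10 genes fell to 19.1% with flanks of 20 kb. The number of regions was 40 in the gene bodies alone and 29 when narrower peaks (below the median width of the list) were dropped. The receptors' single-end share was 0% without Tgfbr3. The median density was 1.60 regions per 100 kb for regions over 1 kb from any start site. Over whole regions the motif shares were 37.1% for AP-1 (33.4% of all regions), 46.8% for CAGACA (44.5%), 21.0% for GGCGCC (23.7%), 41.9% for the Runx core (38.5%) and 41.9% for the Sox letters (48.7%). AP-1 and CAGACA thus passed from below the share of all regions to above it, and the ratio for the Runx core came nearer to 1. Promoter peaks in both ends stayed at 8 genes under every promoter distance, overlap and start site setting tried. No paired analysis was possible because the files used here hold 1 list per femur end that combines its replicates, and for the same reason no replicate could be left out. The lists limit the precision: with 62 regions the counting interval of the single-end share spans 19.2% to 41.3%.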
